A study of Mus musculus with 6 samples.

Results

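Adh1, Adh6a, Rbp2 and Retsat, 4 genes of alcohol and retinoid handling, were followed across the cell classes and both regions of the mouse jejunum in single-cell RNA sequencing data. The genes were chosen by name, with earlier results of these data known. They were found in both deposited expression tables, 4 of the 5674 genes that the tables shared. Rbp2 and Adh6a were highest in enterocyte-like cells and lower in goblet-like, crypt progenitor-like, enteroendocrine-like and tuft-like cells. Adh1 had its highest level in tuft-like cells, 7.85-fold above enterocyte-like cells, and Aldh2, an aldehyde dehydrogenase, was high in the same cells.

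Vitamin A reaches the intestinal epithelium as retinol or is made there from carotenoids. In enterocytes retinol is bound by the cellular retinol-binding protein that Rbp2 encodes, esterified to fatty acids and exported in chylomicrons. Alcohol dehydrogenases oxidise retinol and other alcohols to aldehydes, which aldehyde dehydrogenases oxidise further to acids such as retinoic acid, and Retsat encodes retinol saturase, which reduces a double bond of retinol.

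The samples were anterior jejunum (piece 3 of the small intestine cut into 12) and posterior jejunum (piece 7) of 3 mice aged 120 days on a mixed CD-1:C57BL/6 background, with 1 sample of each region from each mouse. Suspensions of villi and of crypts were combined 1:1, and live EpCAM-positive epithelial cells were sorted one by one into plates for MARS-seq, which tags each mRNA molecule near its 3′ end with a unique molecular identifier (UMI). The labels give no genotype and name no treatment. All levels are UMIs per 10000 UMIs of the cell (CP10K), averaged over the cells of a class in a sample.

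The promoters of Adh1, Adh6a and Rbp2 are shown because the comparison of cell classes turns on these genes. Each runs from 250 bases before to 50 bases after the RefSeq start on GRCm38.p6, plus strand, and capitals mark the matches to a TATA box (TATAAA or its reverse complement TTTATA) or to a nuclear receptor motif (AGGTCA or its reverse complement TGACCT). The windows lie at chr3:138277335-138277634 for Adh1, chr3:138313036-138313335 for Adh6a and chr9:98490287-98490586 for Rbp2.
Adh1: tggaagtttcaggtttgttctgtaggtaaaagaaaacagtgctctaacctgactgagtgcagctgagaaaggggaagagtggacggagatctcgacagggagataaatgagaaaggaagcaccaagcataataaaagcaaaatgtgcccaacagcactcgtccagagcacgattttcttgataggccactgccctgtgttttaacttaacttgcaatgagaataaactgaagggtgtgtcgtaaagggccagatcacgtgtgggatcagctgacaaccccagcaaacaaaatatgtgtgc
Adh6a: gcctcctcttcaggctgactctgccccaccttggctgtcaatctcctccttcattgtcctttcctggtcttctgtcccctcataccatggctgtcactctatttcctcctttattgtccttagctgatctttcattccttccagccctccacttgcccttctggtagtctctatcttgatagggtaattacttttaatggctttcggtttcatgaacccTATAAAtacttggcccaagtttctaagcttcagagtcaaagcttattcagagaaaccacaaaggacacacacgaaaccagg
Rbp2: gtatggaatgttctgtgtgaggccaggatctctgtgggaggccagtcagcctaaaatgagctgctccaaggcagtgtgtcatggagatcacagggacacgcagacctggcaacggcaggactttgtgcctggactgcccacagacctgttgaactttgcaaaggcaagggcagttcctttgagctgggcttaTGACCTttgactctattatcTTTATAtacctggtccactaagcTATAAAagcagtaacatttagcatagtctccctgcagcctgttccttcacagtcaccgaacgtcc
The TATA box letters began 31 bases before the start of Adh6a, and 15 and 38 bases before the start of Rbp2. They began 30 bases before the start of Retsat, whose window lies at chr6:72598352-72598651. The nuclear receptor letters began 58 bases before the start of Rbp2. TATAAA was in 13.6% and AGGTCA in 16.3% of 32851 promoters of the same length, counting either strand. Letters for HNF4 (CAAAGTCCA, 0.475% of promoters), CDX2 (TTTATG, 11.9%), GATA factors (GATAAG, 7.44%) and the octamer (ATGCAAAT, 1.74%), also read on both strands, were not found in these 4 windows, and the Adh1 window held a match to none of the 6 motifs.

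Adh1 (ENSMUSG00000074207, chromosome 3, 138260991 to 138290698, 9 exons) and Adh6a (ENSMUSG00000053054, chromosome 3, 138313286 to 138331134, 9 exons) are neighbours in the alcohol dehydrogenase cluster, 22587 bases apart on the plus strand, with Adh4 and Adh5 after them. Rbp2 (ENSMUSG00000032454, 98486115 to 98509781, 5 exons) lies on chromosome 9 and Retsat (ENSMUSG00000056666, 72598475 to 72608425, 11 exons) on chromosome 6, both on the plus strand of GRCm38 in GENCODE vM21. The RefSeq starts used for Adh1, Rbp2 and Retsat lie inside these annotated genes, and that of Adh6a at its first base. Other annotated genes overlap Adh1 (the antisense Gm16559), Retsat (Gm45053, opposite strand) and Rbp2 (Gm37113, same strand), none of them in both tables, and the sources used here do not give whether counting used the strand.

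The values held 2043 cells, 568, 198 and 262 from anterior mice 1, 2 and 3, and 511, 280 and 224 from the posterior samples of the same mice. Median UMIs per cell ranged from 2766 to 8689.5 between samples. The clustering, which held out the 4 genes and the rest of the retinoid list, gave 671 enterocyte-like, 631 goblet-like, 201 crypt progenitor-like, 115 enteroendocrine-like, 105 Paneth-like and 38 tuft-like cells, and 2 clusters stayed unnamed (189 cells of cluster 4 and 93 of cluster 5). Mouse 1 gave only 26 anterior and 13 posterior enterocyte-like cells, against 105 to 207 in each sample of the other mice. The plates reuse 192 well barcodes, of which 105 occurred in all 6 samples, but no cell name occurred in 2 samples and 0 pairs of cells had identical counts. The samples of a region were separate mice, and differences are read against the spread between them.

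Rbp2, the retinol carrier of the absorptive cell, was high in enterocyte-like cells and low in each of the 4 classes it was tested against. In enterocyte-like cells it stood at 36.5, 84.8 and 86.2 CP10K in the anterior and 54.5, 64.1 and 57.8 CP10K in the posterior jejunum of mice 1, 2 and 3. Its level averaged 64.0 ± 19.0 CP10K in enterocyte-like cells, against 10.9 ± 4.74 CP10K in goblet-like, 5.11 ± 2.40 CP10K in crypt progenitor-like and 11.6 ± 6.51 CP10K in enteroendocrine-like cells (SD, n = 6 each) and 7.41 ± 4.35 CP10K in tuft-like cells (n = 5). The highest sample of any of these 4 classes was an enteroendocrine-like one at 22.6 CP10K, below every enterocyte-like sample. The log2 difference of enterocyte-like cells was 2.58 against goblet-like (SE 0.355, limma adjusted p = 4.37e-07), 3.68 against crypt progenitor-like (adjusted p = 2.56e-11), 2.55 against enteroendocrine-like (adjusted p = 5.91e-07) and 3.51 against tuft-like cells (adjusted p = 6.00e-10). These differences are of log2(mean CP10K + 0.2), averaged over samples. The added 0.2 shrinks the change of low genes, while samples at 0 can push a difference beyond that of the means. Between these levels came cluster 4 (48.1 ± 17.1 CP10K, n = 6), cluster 5 (36.4 ± 20.1 CP10K, n = 6) and Paneth-like cells (33.3 ± 18.3 CP10K, n = 4), whose samples overlapped those of enterocyte-like cells. Paneth-like cells were shallow, with a median of 923 UMIs, and other enterocyte genes were high there too, as given below. Cluster 5 scored highest on B or plasma cell markers (3 of 3 scored were raised), but 0 of them were among its top 10 genes.

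Adh6a, a further gene of the alcohol dehydrogenase cluster, was likewise highest in enterocyte-like cells, with wide differences between mice. Enterocyte-like cells held 2.12, 14.6 and 14.1 CP10K of it in the anterior and 1.23, 4.18 and 6.06 CP10K in the posterior jejunum of mice 1, 2 and 3, so both samples of mouse 1 were the lowest of their region. It averaged 7.04 ± 5.89 CP10K in enterocyte-like cells, against 1.92 ± 2.57 CP10K in goblet-like, 0.613 ± 0.651 CP10K in crypt progenitor-like and 1.27 ± 1.25 CP10K in enteroendocrine-like cells (SD, n = 6 each). Cluster 4 (6.45 ± 3.46 CP10K) was next in order, with a mean closer to that of enterocyte-like cells than the spread, and Paneth-like cells had 2.52 ± 1.30 CP10K (n = 4). The goblet-like samples ranged up to 7.13 CP10K and overlapped the enterocyte-like ones. Adh6a was higher in enterocyte-like cells by log2 1.87 against goblet-like (SE 0.566, limma adjusted p = 0.0211), 3.06 against crypt progenitor-like (adjusted p = 4.49e-05) and 2.28 against enteroendocrine-like cells (adjusted p = 0.00332). The call against goblet-like cells was lost in 8 of 20 alternatives, among them without anterior mouse 3 (limma adjusted p = 0.0942), posterior mouse 2 (0.0521) or posterior mouse 3 (0.0815), and the adjusted p ranged between 0.000192 and 0.205. The call against enteroendocrine-like cells was lost in 1 of 20, with the deposited posterior log2 values (log2 0.496, adjusted p = 0.157).

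In tuft-like cells few UMIs of Adh6a were found. They numbered 0, 0 and 5 in anterior mice 1, 2 and 3, and 1, 0 and 0 in the posterior samples of the same mice, in 2 of 38 cells. Enterocyte-like cells were higher by log2 3.83 (SE 0.599, limma adjusted p = 4.32e-06). After each cell was thinned to 1000 UMIs, 36.8% of 612 enterocyte-like cells kept an Adh6a UMI, against 0 of 37 tuft-like cells (95% Wilson interval up to 9.41%). Unthinned, the shares were 54.5% of enterocyte-like and 5.26% of tuft-like cells. These shares pool the cells of all samples, and the mix of mice differed. Mouse 1, lowest in enterocyte-like Adh6a in both regions, gave 9 anterior and 16 posterior of the 38 tuft-like cells. It gave only 26 and 13 of the 671 enterocyte-like cells.

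Among the named classes the mean of Retsat was highest in enterocyte-like cells. It stood there at 4.74, 2.95 and 1.54 CP10K in the anterior and 3.94, 1.45 and 1.37 CP10K in the posterior jejunum of mice 1, 2 and 3, with mouse 1 the highest in both regions. The mean was 2.67 ± 1.44 CP10K in enterocyte-like cells, against 0.376 ± 0.399 CP10K in goblet-like, 1.62 ± 0.831 CP10K in crypt progenitor-like and 0.940 ± 0.910 CP10K in enteroendocrine-like cells (SD, n = 6 each). Cluster 4 was higher still, at 4.11 ± 3.14 CP10K, within the spread. Retsat was higher in enterocyte-like than in goblet-like cells (log2 2.50, SE 0.63, limma adjusted p = 0.00419) with no overlap of the samples. This call was lost in 2 of 20 alternatives, with the deposited anterior (limma adjusted p = 0.0649) or posterior log2 values (0.0999). The difference from crypt progenitor-like cells was log2 0.63 (adjusted p = 0.505) and that from enteroendocrine-like cells 1.76 (adjusted p = 0.0506); the second passed the threshold in 10 of 20 alternatives, for instance without anterior mouse 3 (adjusted p = 0.0305). Tuft-like cells held 10 Retsat UMIs in 4 of 38 cells. Their samples averaged 1.09 ± 1.87 CP10K (n = 5), with a median of 0 and a highest value of 4.32 CP10K, and overlapped the enterocyte-like ones. The difference from tuft-like cells was log2 2.44 (limma adjusted p = 0.00586), more than the means alone give, because samples at 0 weigh strongly on the log scale. This call was lost in 1 of 20 alternatives, with the deposited anterior log2 values (log2 0.275, adjusted p = 0.343).

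Adh1, which encodes the class I alcohol dehydrogenase that oxidises ethanol and retinol, did not follow the enterocyte order. Enterocyte-like cells held 5.13, 11.1 and 8.53 CP10K in the anterior and 7.15, 2.6 and 5.10 CP10K in the posterior jejunum of mice 1, 2 and 3, against 5.94, 2.06 and 2.82 CP10K and 2.02, 0.389 and 1.24 CP10K in the goblet-like cells of the same samples. The lowest enterocyte-like sample lay under the 2 highest goblet-like ones. The difference was log2 1.59 (SE 0.532, limma adjusted p = 0.0439), and it missed the threshold without anterior mouse 2 (adjusted p = 0.131) or 3 (0.110), without posterior mouse 1 (0.0857) or 3 (0.0920), and under other settings. Over all 20 alternatives the adjusted p ranged between 5.53e-05 and 0.603. Against crypt progenitor-like cells, at 4.30 ± 3.66 CP10K, the difference of log2 1.09 did not pass (limma adjusted p = 0.132). It passed in 5 of 20 alternatives, for instance at Leiden resolution 0.5 (adjusted p = 0.0112) and with summed UMIs (0.0301), and was below 0 in 1, with the deposited anterior log2 values (log2 -0.408).

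Against goblet-like cells 4 of the 4 genes were higher in enterocyte-like cells, where 7.76% of the 5222 genes tested were and 2.68% were lower. Against crypt progenitor-like cells it was 2 of 4 (Rbp2 and Adh6a), where 11.0% were higher and 13.4% lower. Against enteroendocrine-like cells it was the same 2 of 4, where 11.0% were higher and 3.08% lower. Against tuft-like cells 3 of 4 were higher, where 15.8% were, and Adh1 was lower, where 2.91% were. These contrasts share the enterocyte-like samples.

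**Figure D1:**
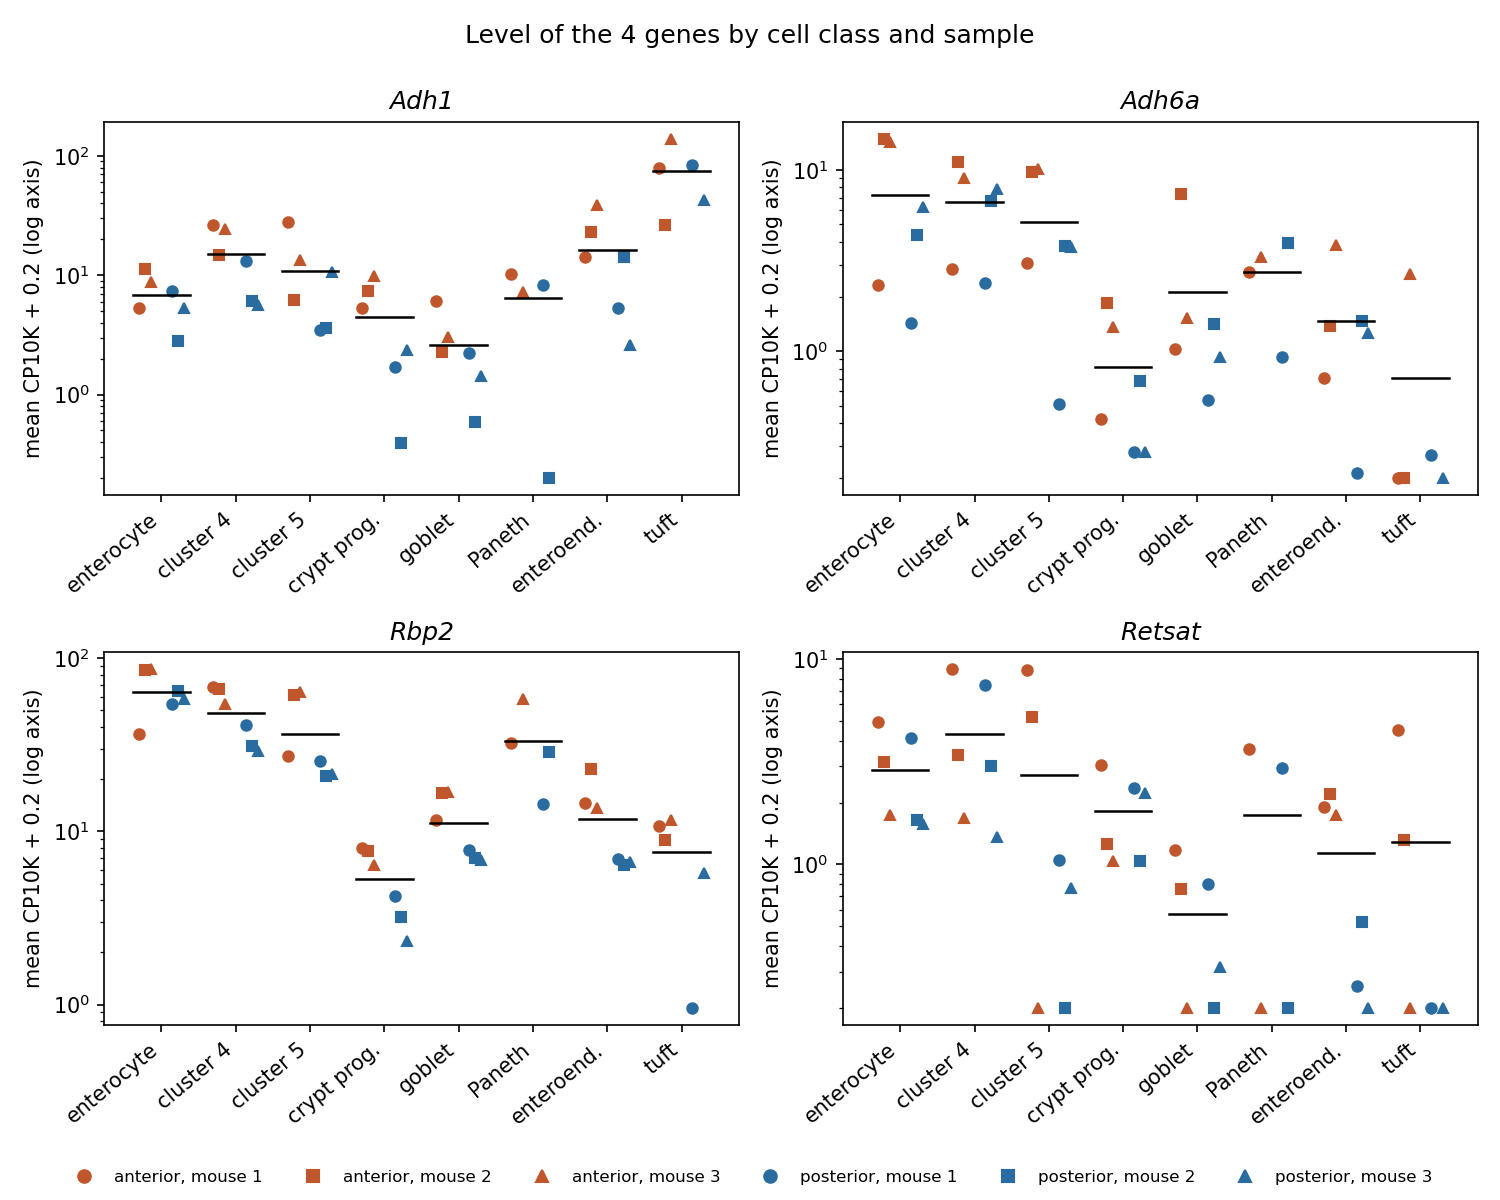
Mean CP10K + 0.2 (log axis) of Adh1, Adh6a, Rbp2 and Retsat in each class, 1 point per sample with at least 3 cells of the class and a line at the mean. The 5 tuft-like samples of Adh1 sit between 26.0 and 139 CP10K, while Rbp2 is highest in enterocyte-like cells at 36.5 to 86.2 CP10K.

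Tuft cells are rare chemosensory cells of the epithelium that release signals to immune cells. All 38 cells of the tuft-like cluster had a UMI of Sh2d6, a tuft cell marker, with a median of 32.5 Sh2d6 UMIs per cell. They numbered 9, 3 and 4 in anterior mice 1, 2 and 3, and 16, 1 and 5 in the posterior samples of the same mice, and the sample with 1 cell was left out of means and tests. Only 3 of the 14 listed tuft markers were in both tables. Their summed level was 0.495 to 0.961 CP10K (median 0.677) in enterocyte-like cells, against 93.2 to 235 CP10K (median 120) in tuft-like cells.

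No enterocyte-like sample had more than 11.1 CP10K of Adh1. In tuft-like cells it stood at 79.6, 26.0 and 139 CP10K in the anterior samples of mice 1, 2 and 3, and at 83.8 and 42.2 CP10K in the posterior samples of mice 1 and 3. The single tuft-like cell of posterior mouse 2 held 188 CP10K. Every one of these values lay above all enterocyte-like samples. Enterocyte-like cells averaged 6.60 ± 2.99 CP10K (SD, n = 6), against 74.1 ± 43.7 CP10K in tuft-like cells (n = 5), a log2 difference of -2.97 (SE 0.563, limma adjusted p = 9.42e-05), or 7.85-fold higher in tuft-like cells on the log2(mean + 0.2) scale. The call and its direction held in all 20 alternatives, with a log2 difference of -3.63 to -2.44 and an adjusted p of 4.34e-06 to 0.0212.

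The signal was spread over the tuft-like cells. An Adh1 UMI was found in 36 of the 38 cells, 1368 UMIs in all, and both cells without one were posterior, 1 of mouse 1 and 1 of mouse 3. Thinned to 1000 UMIs, 31.0% of 612 enterocyte-like cells (95% Wilson interval 27.5% to 34.8%) and 20.1% of 568 goblet-like cells had an Adh1 UMI, against 91.9% of 37 tuft-like cells (78.7% to 97.2%). Too shallow and left out were 59 enterocyte-like, 63 goblet-like and 1 tuft-like cell. Without thinning the shares were 49.5%, 33.4% and 94.7% in the same order. All these shares pool the cells of the samples. Enteroendocrine-like cells and cluster 4 came closer to tuft-like cells, at 38.6% and 72.5% thinned and 57.4% and 94.7% without thinning. Cluster 4 was deeper, at a median of 11803 UMIs. The median depth was 3159 UMIs in enterocyte-like, 2143 in goblet-like and 2883 in tuft-like cells. In mouse 1, whose samples filled several plates, the tuft-like mean of Adh1 was 66.6 and 95.8 CP10K on the anterior plates and 93.6, 59.0 and 95.6 CP10K on the posterior plates, so each plate was far above the enterocyte-like level.

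Sh2d6 UMIs outside the tuft-like cluster did not come with a like level of Adh1. In 85 cells of other clusters with a Sh2d6 UMI (median 1 per cell), Adh1 stood at 11.1, 8.24 and 10.9 CP10K in the anterior samples of mice 1, 2 and 3 and at 3.59 and 3.60 CP10K in the posterior samples of mice 1 and 3. These levels lay below those of the tuft-like cluster in every sample and within the span of the enterocyte-like, enteroendocrine-like and goblet-like samples.

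Free RNA in the wells can give a class UMIs of genes it does not express, so each level was set beside 14 other genes of absorptive enterocytes, such as Apoa4 and Sis. In tuft-like cells these 14 genes stood at 0.0% to 21.4% of their enterocyte-like level, with a median of 6.91%. Adh6a at 7.20% and Rbp2 at 11.6% lay inside that range, and a tuft-like level of their own was not told apart from it. Adh1 stood at 1120% and Retsat, on its 10 UMIs, at 40.8%. In goblet-like cells, where the 14 genes ranged between 6.00% and 38.5% (median 10.9%), the 4 genes lay inside the range at 14.1% (Retsat) to 36.5% (Adh1). They lay in its upper part, with Adh1 and Adh6a above 13 of the 14 genes, Rbp2 above 12 and Retsat above 10. In crypt progenitor-like cells the range was 2.63% to 21.0% (median 6.76%), with Rbp2 (7.99%) and Adh6a (8.70%) inside it and Retsat (61.0%) and Adh1 (65.0%) above it. In Paneth-like cells it was 9.44% to 78.3% (median 50.9%), with Adh6a (35.8%), Rbp2 (52.0%) and Retsat (58.1%) inside it and Adh1 (95.3%) above it. In cluster 4 it was 10.4% to 105% (median 38.4%), with Rbp2 (75.2%) and Adh6a (91.6%) inside it and Retsat (154%) and Adh1 (227%) above it. In cluster 5 it was 20.1% to 119% (median 47.2%), with Rbp2 (57.0%), Adh6a (70.4%) and Retsat (94.5%) inside it and Adh1 (162%) above it. In enteroendocrine-like cells the range was 2.13% to 89.4% (median 10.6%), with Adh1 (245%) above it. Adh6a (18.1%), Rbp2 (18.2%) and Retsat (35.3%) lay inside it, each above 12 of the 14 genes.

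Enteroendocrine-like cells, the hormone-secreting class that the series title is about, were the named class with the next highest mean of Adh1, 16.2 ± 13.1 CP10K (SD, n = 6). Adh1 stood there at 14.2, 22.9 and 38.5 CP10K in the anterior and 5.14, 14.2 and 2.40 CP10K in the posterior samples of mice 1, 2 and 3, and the samples overlapped those of enterocyte-like cells. The log2 difference of enterocyte-like from enteroendocrine-like cells was -0.91 (limma adjusted p = 0.282). Paneth-like cells (6.29 ± 4.39 CP10K, n = 4) and enterocyte-like cells were neighbours in the order of Adh1 levels, differing by far less than the spread. Tuft-like and enteroendocrine-like samples overlapped too, since 1 tuft-like sample was at 26.0 CP10K.

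**Figure D2:**
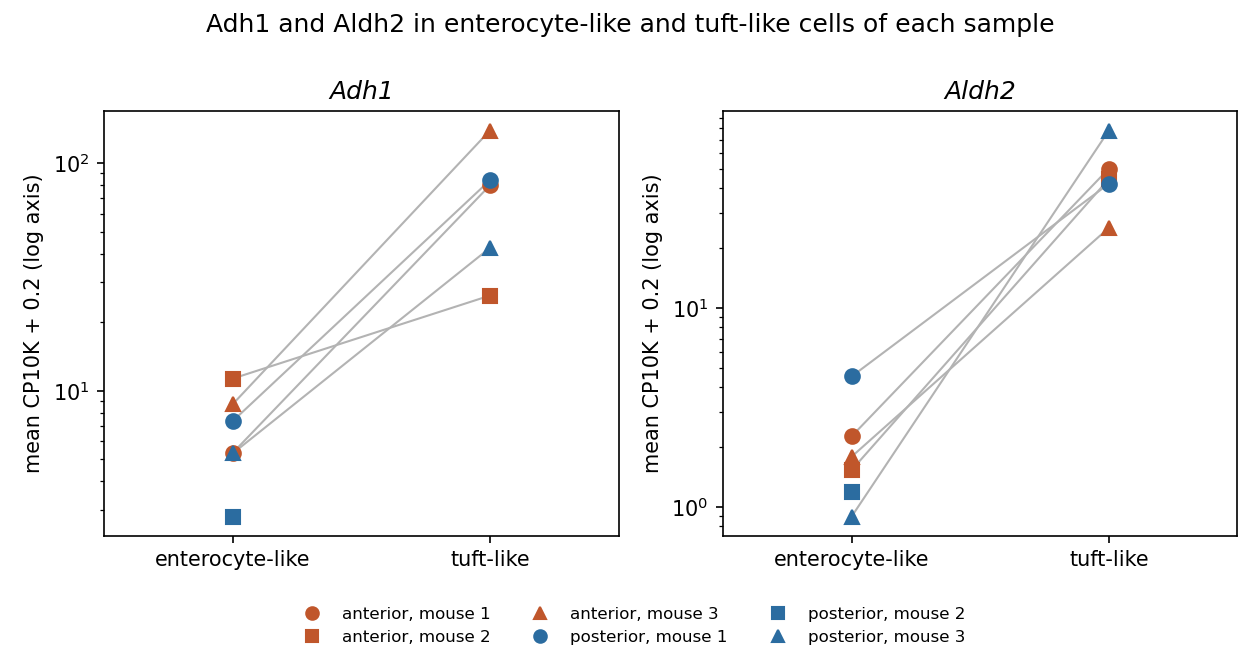
Mean CP10K + 0.2 (log axis) of Adh1 and Aldh2 in the enterocyte-like and tuft-like cells of each sample, joined where both are measured. Each line climbs to the tuft-like side, with Aldh2 at 0.694 to 4.32 CP10K in enterocyte-like and 25.0 to 77.6 CP10K in tuft-like cells.

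Aldh2, which encodes the mitochondrial aldehyde dehydrogenase that oxidises acetaldehyde, was the other list gene lower in enterocyte-like than in tuft-like cells. Enterocyte-like cells held 2.06, 1.33 and 1.59 CP10K of Aldh2 in the anterior and 4.32, 0.989 and 0.694 CP10K in the posterior jejunum of mice 1, 2 and 3. Tuft-like cells held 49.9, 44.2 and 25.0 CP10K in the anterior samples and 41.8 and 77.6 CP10K in the posterior samples of mice 1 and 3, far above and with no overlap. The difference was log2 -4.51 (SE 0.583, limma adjusted p = 7.08e-08). The single tuft-like cell of posterior mouse 2 was at 3.36 CP10K. Among the 5 tuft-like samples anterior mouse 3 had the highest Adh1 and the lowest Aldh2.

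Of a list of 60 retinoid and alcohol handling genes, likewise chosen with earlier results known, 26 were in both tables. Of these, 25 were tested between classes, Adh1, Adh6a, Rbp2 and Retsat included. Against goblet-like cells 7 of 25 were higher and 0 lower, with a median log2 difference of 1.27 beside 0.32 over all genes tested; over the 20 alternatives the count ranged between 2 and 16, and without anterior or posterior mouse 3 it was 4. Against crypt progenitor-like cells 8 were higher and 1 lower (median 0.91, beside -0.01 over all genes), and against enteroendocrine-like cells 13 were higher and 0 lower (1.57, beside 0.25). Against tuft-like cells 13 were higher and 2 lower (1.49, beside 0.53), and the median was 1.45 with Adh4 and Bco2, which had 0 UMIs in tuft-like cells, at their bounds. The numbers of genes called ranged between 5 and 11 over 20 alternatives against crypt progenitor-like, 3 and 15 against enteroendocrine-like (8 without anterior mouse 2) and 6 and 19 against tuft-like cells.

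Without Adh1, Adh6a, Rbp2 and Retsat, 3 of the other 21 list genes were higher in enterocyte-like than in goblet-like cells and 0 lower (median log2 1.10), beside 7.76% of all genes higher. Against crypt progenitor-like cells 6 of 21 were higher and 1 lower (median 0.75), beside 11.0% higher and 13.4% lower. Against enteroendocrine-like cells 11 were higher and 0 lower (median 1.48), beside 11.0% higher, and against tuft-like cells 10 were higher and 1 lower (median 1.45), beside 15.8% higher and 2.91% lower. Above 0, whether called or not, were 20, 17, 19 and 18 of the 21 in the same order of contrasts. Over all 5222 genes tested, 3601, 2598, 3151 and 3672 were above 0.

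Dgat1 and Lipe, 2 of the 3 genes of retinol esterification and ester hydrolysis in both tables, were higher in enterocyte-like cells in each contrast. Dgat1, an acyltransferase that esterifies retinol as well as diacylglycerol, averaged 26.7 ± 2.99 CP10K in enterocyte-like cells, against 6.03 ± 2.15 CP10K in goblet-like and 3.68 ± 0.776 CP10K in crypt progenitor-like cells (SD, n = 6 each). The enterocyte-like mean also stood against 3.15 ± 2.18 CP10K in enteroendocrine-like cells (n = 6) and 1.36 ± 1.30 CP10K in tuft-like cells (n = 5). The log2 differences ran between 2.17 (limma adjusted p = 0.00152, goblet-like) and 4.65 (adjusted p = 1.97e-09, tuft-like). Lipe, the hormone-sensitive lipase, averaged 2.00 ± 1.16 CP10K in enterocyte-like and 0.135 ± 0.179 CP10K in goblet-like cells (log2 2.71, adjusted p = 0.000597) and was called higher in the other 3 contrasts too. Its 4 calls were lost with the deposited anterior log2 values (limma adjusted p of 0.0769 to 0.439), and that against tuft-like cells also without anterior mouse 3 (0.0548). Ces1d, a carboxylesterase and the third of these genes, averaged 0.678 ± 0.818 CP10K in enterocyte-like cells and was called in none of the 4 contrasts (log2 0.75 to 1.45, adjusted p of 0.0596 to 0.466). Aldh9a1, Bco2, Cd36, Akr1b7 and Rxra were further list genes called higher in enterocyte-like than in tuft-like cells, with adjusted p of 0.0048 (Aldh9a1) to 0.0401 (Rxra). When a sample was left out, the calls of Akr1b7, Rxra and Cd36 were lost in 4, 4 and 3 of 6 fits.

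Enzymes that turn over retinal and other aldehydes differed by contrast. Dhrs3, which reduces retinal back to retinol, was higher in enterocyte-like than in goblet-like cells (1.29 ± 1.19 against 0.158 ± 0.166 CP10K, log2 1.93, limma adjusted p = 0.0359), and also than in enteroendocrine-like and tuft-like cells. Its call against goblet-like cells was lost when any single sample but that of posterior mouse 2 was left out (limma adjusted p of 0.0541 to 0.139). Aldh1a1, a retinal dehydrogenase that makes retinoic acid, averaged 3.52 ± 2.98 CP10K in enterocyte-like cells, against 0.695 ± 0.519 CP10K in crypt progenitor-like (log2 1.95, adjusted p = 0.00870) and 0.3 ± 0.671 CP10K in tuft-like cells (log2 3.52, adjusted p = 2.31e-05). Rdh7, a retinol dehydrogenase, Akr1b7, an aldo-keto reductase, and Cd36, a fatty acid carrier, were also higher than in crypt progenitor-like cells. Aldh1b1, a mitochondrial aldehyde dehydrogenase, was the gene of the list lower in enterocyte-like than in crypt progenitor-like cells (3.98 ± 1.45 against 11.7 ± 2.13 CP10K, log2 -1.57, limma adjusted p = 0.0316). That call was lost without anterior mouse 1 (adjusted p = 0.0615) or 2 (0.0698) and without posterior mouse 1 (0.0675) or 3 (0.0811).

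Within the alcohol dehydrogenase cluster the genes did not share 1 order of classes. Adh4, a class II alcohol dehydrogenase, averaged 0.855 ± 0.762 CP10K in enterocyte-like cells, against 0 UMIs in tuft-like cells (limma adjusted p = 0.000607), at least 3.90-fold higher in enterocyte-like cells when 3 UMIs are allowed over the tuft-like group. It was also higher than in enteroendocrine-like cells (log2 1.73, limma adjusted p = 0.00545; 0.0519 without posterior mouse 1). Adh5, which acts on formaldehyde bound to glutathione, passed the threshold in none of the 4 class contrasts. Adh1 was the one gene of the 4 cluster genes measured (Adh1, Adh6a, Adh4 and Adh5) that was called higher in tuft-like cells.

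**Figure D3:**
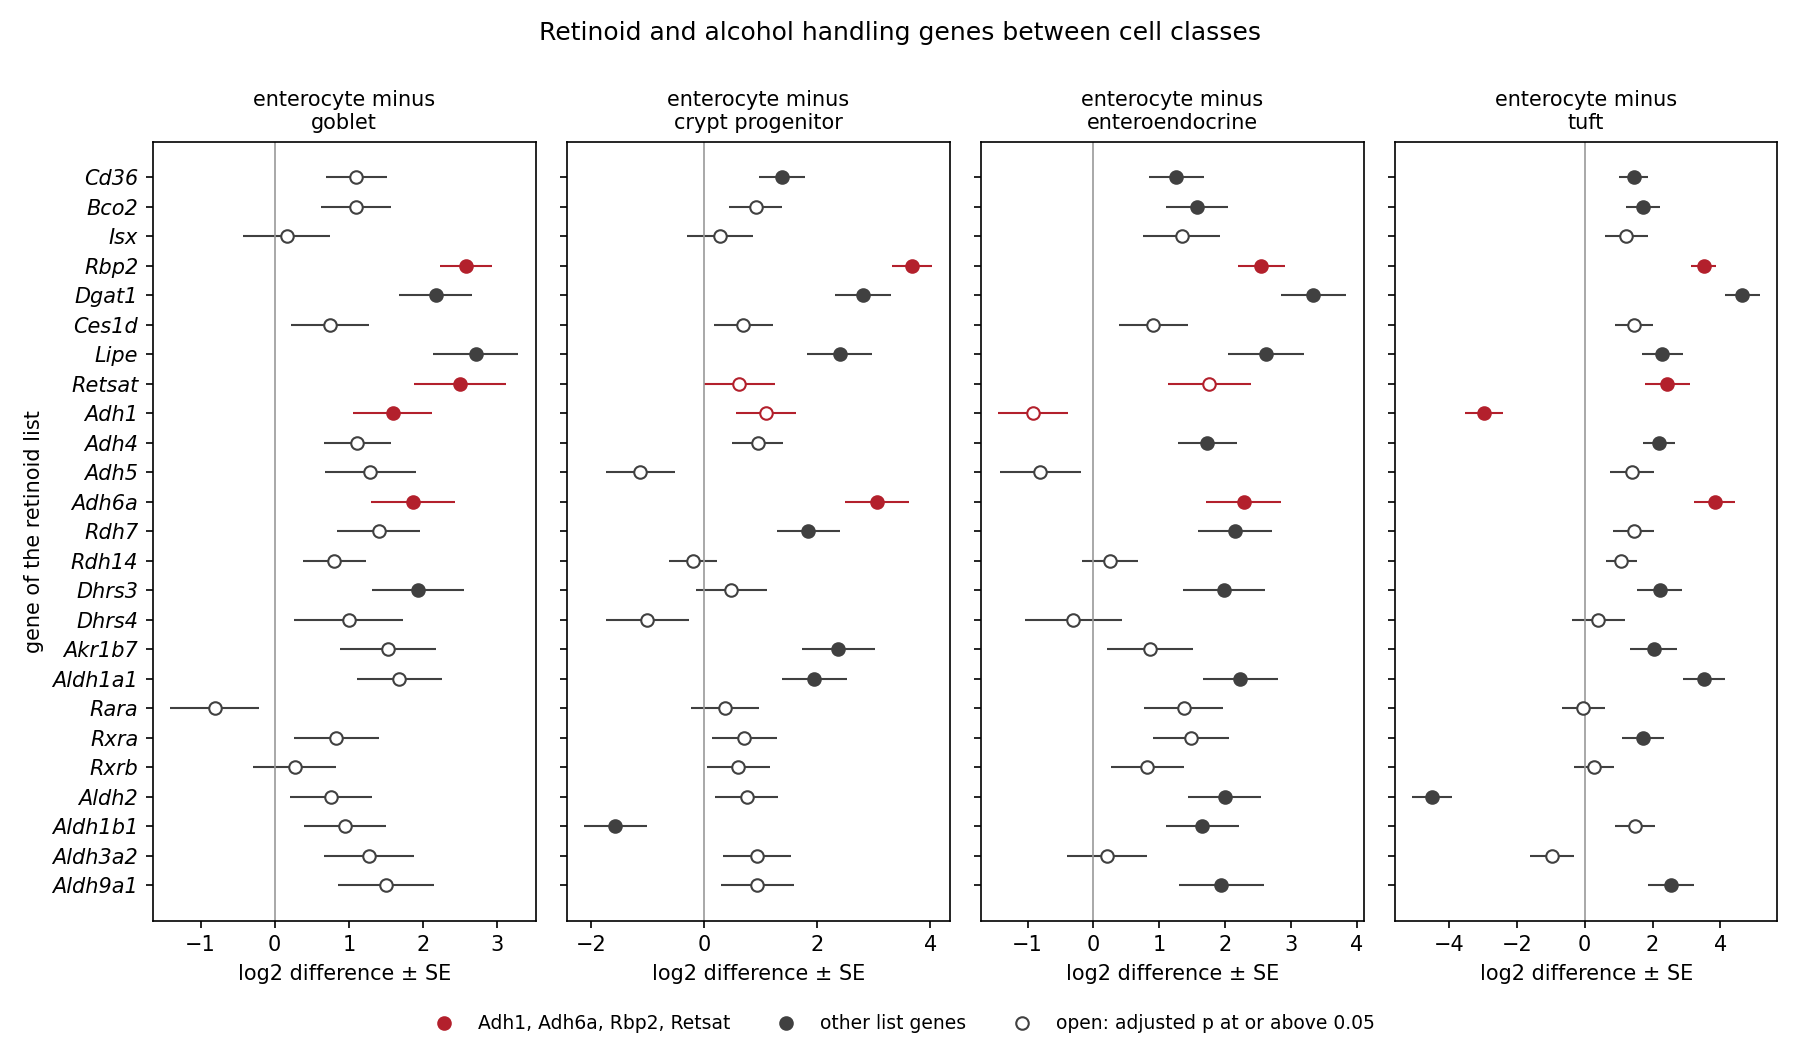
Log2 difference ± SE of enterocyte-like minus each other class for the 25 tested genes of the retinoid list, filled where the limma adjusted p is under 0.05. Most points lie right of 0; Adh1 at -2.97 and Aldh2 at -4.51 are the filled points left of 0 in the tuft contrast, and Aldh1b1 at -1.57 in the crypt progenitor contrast.

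The enterocyte-like class joined 3 clusters, whose leading genes differed. They also differed in region, with 102 anterior and 20 posterior cells in cluster 1, 13 and 166 in cluster 2 and 177 and 193 in cluster 11, so that region and cluster are mixed in the means over samples. Adh1 averaged 11.8 ± 2.90 CP10K in cluster 1 (122 cells, led by Reg1), 6.65 ± 2.72 CP10K in cluster 2 (179 cells) and 4.43 ± 3.10 CP10K in cluster 11 (370 cells, led by Ada, Creb3l3 and Apoa4; SD, n = 5 samples each). In the anterior samples alone Adh1 stood at 13.8 ± 1.30, 7.97 ± 3.98 and 5.75 ± 3.53 CP10K in clusters 1, 2 and 11 (n = 3, 2 and 3), and in the posterior samples alone at 8.79 ± 0.687, 5.77 ± 1.98 and 2.45 ± 0.750 CP10K (n = 2, 3 and 2), the same order of means in each region. Retsat had 6.69 ± 5.54, 3.27 ± 1.4 and 0.558 ± 0.442 CP10K in clusters 1, 2 and 11. Adh6a, at 9.57 ± 9.06, 8.28 ± 5.54 and 6.89 ± 4.48 CP10K, differed between clusters by less than the spread. Rbp2 stood at 103.0 ± 44.8 CP10K in cluster 2, 80.2 ± 45.7 CP10K in cluster 1 and 46.6 CP10K in cluster 11. In the posterior samples alone it was 72.1, 42.3 and 49.3 CP10K in the same order of clusters (n = 3, 2 and 2). In the anterior samples alone it was 149.4, 105.4 and 44.8 CP10K (n = 2, 3 and 3). The regions did not overlap in clusters 1 and 2, where they were not tested. Cluster 11 was shallow, with a median of 1515.5 UMIs per cell.

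Enterocytes change as they move from the villus base to the tip, so enterocyte-like cells were divided in each sample at the median of a score of tip genes minus base genes that held none of the 4 genes. Upper and lower are ranges of this score and not cell types, and 5 to 34 cells of a sample lay within 0.5 of the cut. Adh1 in upper cells stood at 1.76 CP10K in the lowest sample, 3.36 CP10K at the median and 7.37 CP10K in the highest, against 2.86, 7.88 and 14.8 CP10K in lower cells. It was lower in the upper cells of 6 of 6 samples, although the ranges overlapped. The means were 4.21 ± 2.41 CP10K in upper and 8.97 ± 4.42 CP10K in lower cells (SD, n = 6 each), a log2 difference of -1.07 (SE 0.319) that did not pass (limma adjusted p = 0.122), beside 0.428% of 4668 genes called higher and 0.471% called lower in upper cells. Without posterior mouse 1, which had 6 and 7 cells on the upper and lower side, it passed (log2 -1.27, adjusted p = 0.0441), and with only cells of at least 2000 UMIs it was log2 -0.46 (adjusted p = 0.405).

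Retsat averaged 1.54 ± 1.31 CP10K in upper and 3.77 ± 2.86 CP10K in lower cells (log2 -1.33, limma adjusted p = 0.206). Neither Adh6a (5.77 against 8.27 CP10K, log2 -0.83, adjusted p = 0.329) nor Rbp2 (59.2 against 68.8 CP10K, log2 -0.24, adjusted p = 0.541) passed. Aldh1a1 was the list gene called, lower in upper cells (1.62 against 5.30 CP10K, log2 -1.67, limma adjusted p = 0.0266). That call was lost when any single sample but that of posterior mouse 1 was left out (adjusted p of 0.051 to 0.137). Upper cells were shallower than lower cells in 5 of 6 samples, for instance with a median of 1267 against 4180 UMIs in anterior mouse 1, and the Adh1 difference was smaller where shallow cells were left out, as given above.

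**Figure D4:**
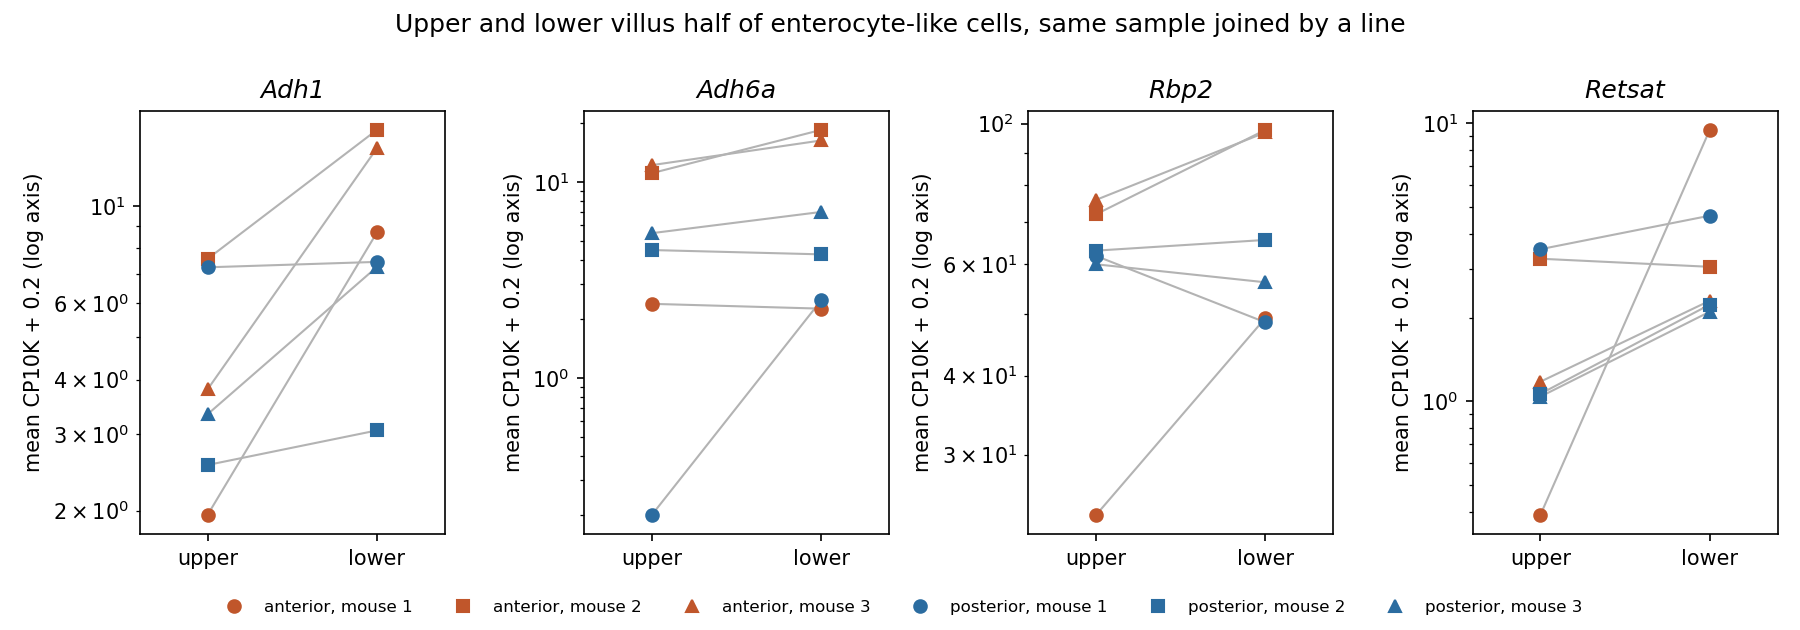
Mean CP10K + 0.2 (log axis) of the 4 genes in upper and lower enterocyte-like cells, with the cells of a sample joined by a line. Adh1 is lower on the upper side in 6 of 6 samples, by little in posterior mouse 1 (7.04 against 7.25 CP10K) and by much in anterior mouse 1 (1.76 against 8.50 CP10K).

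Between the regions, 0 of the 4 genes passed the threshold in enterocyte-like cells, beside 0.0% of 4671 genes by limma; at an unadjusted p under 0.05 the counts were 0 of 4 and 270 genes (5.78%). Adh6a averaged 10.3 ± 7.05 CP10K in anterior and 3.83 ± 2.43 CP10K in posterior cells (SD, n = 3 each), higher in the anterior sample of 3 of 3 mice (log2 1.21, SE 0.711, limma adjusted p = 0.815). Adh1 averaged 8.25 ± 3.00 CP10K in anterior and 4.95 ± 2.28 CP10K in posterior cells, higher in the anterior sample of mice 2 and 3 and lower in that of mouse 1 (log2 0.76, adjusted p = 0.816). The difference was log2 0.45 for Retsat (adjusted p = 0.895) and 0.13 for Rbp2 (adjusted p = 0.962), with overlapping regions for each of the 4 genes, where 7.69% of genes had every anterior sample above every posterior one. These values join clusters that differ in region. Within clusters 1 and 2 the mean of Rbp2 was higher in the anterior samples, and in cluster 11 it was not, as given above. Of the 26 list genes 17 were above 0, beside 2631 of the 4671 genes tested (median log2 0.45, beside 0.10), and none passed. The 6 list genes with the smallest p were Dhrs4 (log2 1.42), Dhrs3 (1.12), Isx (0.96), Adh5 (0.90), Adh6a and Rxrb (1.10), with limma adjusted p of 0.807 to 0.815.

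In crypt progenitor-like cells Adh1 was higher in the anterior jejunum of every mouse. It stood at 5.10, 7.16 and 9.65 CP10K in the anterior and 1.49, 0.195 and 2.17 CP10K in the posterior samples of mice 1, 2 and 3. The regions did not overlap, as was so with the anterior higher for 5.58% of the 4893 genes tested, and posterior mouse 2, with 12 cells, was far the lowest. The log2 difference was 2.64 (SE 0.537, limma adjusted p = 0.182), the 6th smallest p in this comparison, in which 0.0% of the genes passed. With the mouse as a block, which pairs both regions of an animal, the same difference passed (adjusted p = 0.0433). Without posterior mouse 2 it was log2 1.86 (adjusted p = 0.289). The share of all genes that passed with the block was not computed.

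Rbp2 in crypt progenitor-like cells also had no overlap, with 7.77, 7.55 and 6.2 CP10K in the anterior and 4.01, 2.99 and 2.12 CP10K in the posterior samples (log2 1.22, SE 0.306, limma adjusted p = 0.593). In goblet-like cells it stood at 11.4, 16.6 and 16.7 CP10K in the anterior and 7.59, 6.78 and 6.64 CP10K in the posterior samples, again apart (log2 1.05, adjusted p = 1). Adh1 in goblet-like cells stood at 2.06 CP10K or more in the anterior and at 2.02 CP10K or less in the posterior samples (log2 1.49, adjusted p = 1). These were 2 of 4 genes apart with the anterior higher in goblet-like cells, where 3.76% of 4258 genes were so and 0.0235% passed the threshold. The Rbp2 levels of both classes lay inside the range that 14 genes of absorptive enterocytes had there, above 12 of them in goblet-like and 9 in crypt progenitor-like cells. The part of free RNA from enterocytes in these differences was not tested.

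In enteroendocrine-like cells Rbp2 stood at 14.4, 22.6 and 13.5 CP10K in the anterior and at 6.76, 6.17 and 6.47 CP10K in the posterior samples of mice 1, 2 and 3. The anterior samples were all higher. Retsat was apart there too, at 1.545 to 2.008 CP10K in the anterior and up to 0.3241 CP10K in the posterior samples, while Adh6a overlapped. Rbp2 was also apart, with the anterior higher, in Paneth-like, tuft-like and cluster 5 cells, on 2 or 3 samples of a region. The share of all genes so placed was not computed for these classes, and their regions were not tested. Enteroendocrine-like cells numbered 4 to 58 in a sample. In enterocyte-like cells Rbp2 of anterior mouse 1, on 26 cells, lay under all posterior samples. The difference of the region contrast between enterocyte-like and goblet-like cells was tested as an interaction. It was log2 -0.92 for Rbp2 (limma adjusted p = 0.999), and 0 of the 4 genes passed, beside 0.0% of 4730 genes. At an unadjusted limma p under 0.05 there were 194 genes (4.1%), of which Rbp2 was 1.

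**Figure D5:**
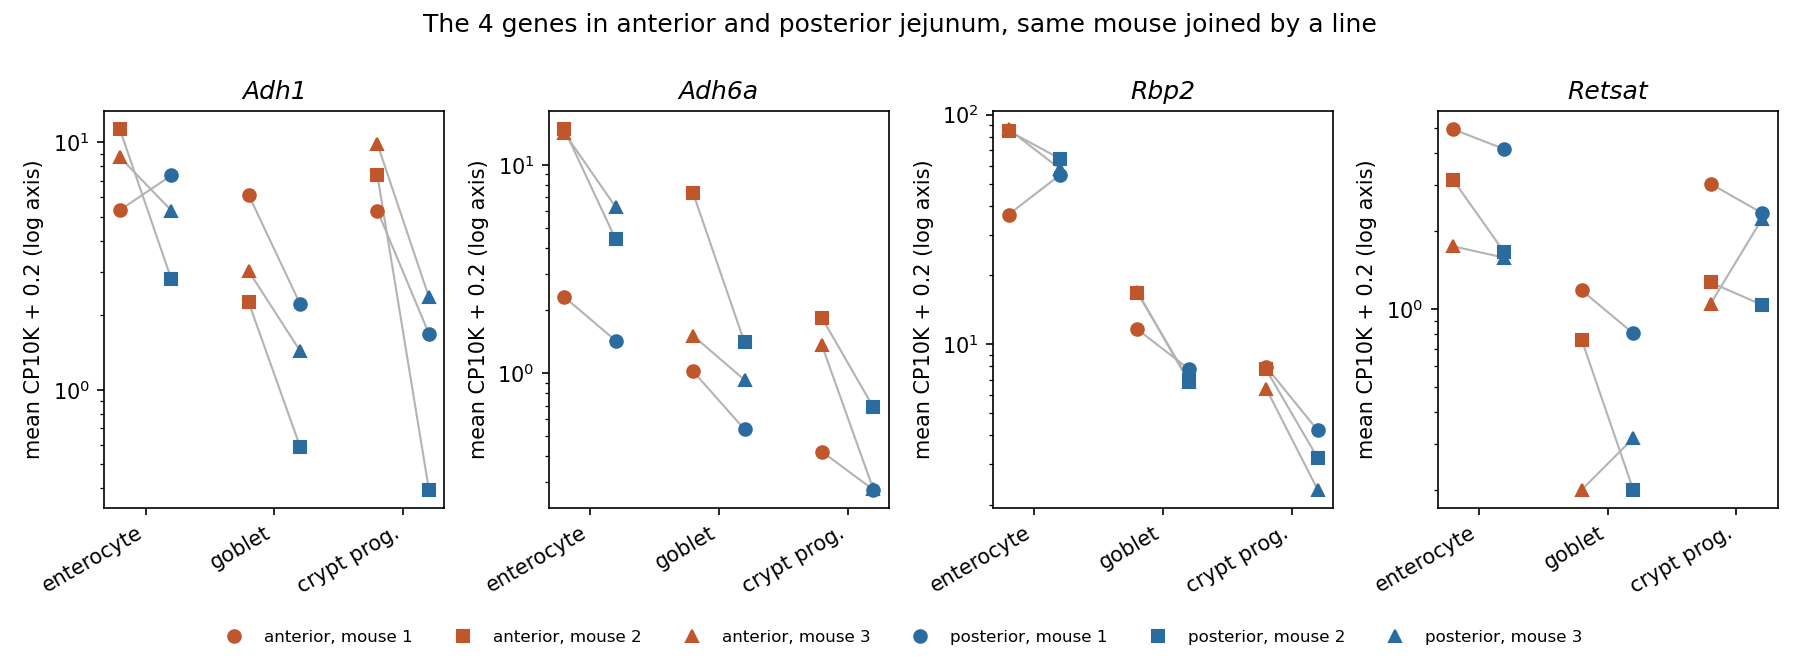
Mean CP10K + 0.2 (log axis) of the 4 genes in anterior and posterior samples, by class, with the samples of a mouse joined by a line. In crypt progenitor-like cells Adh1 and Rbp2 drop toward the posterior side in each of the 3 mice, while the enterocyte-like lines of mouse 1 go the other way for both genes.

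The genes most like each of the 4 in pattern were taken by Pearson r of log2(mean CP10K + 0.2) over 33 values of named classes in samples, which share libraries and, by class, depth. For Rbp2 these were the apolipoproteins Apoa4 (r = 0.913) and Apoc3 (0.846), the transcription factor Creb3l3 (0.8), the guanylate cyclase activator Guca2b (0.788) and the glucose transporter Slc5a1 (0.784). For Adh6a they were 2210407C18Rik (0.767), Rbp2 (0.756), Prap1 (0.732), Cyp2d26 (0.728) and Apoa4 (0.721). For Adh1 they were Tmem176a (0.786), the glutathione transferase Mgst3 (0.774), the lysosomal carboxypeptidase Ctsa (0.751), the G protein subunit Gnai2 (0.740) and S100a1 (0.716). For Retsat they were Uqcrh (0.794), Eif1ad (0.761), Urah (0.743), Morf4l2 (0.731) and the pseudogene Ftl1-ps1 (0.730), whose reads can be shared with its parent gene. Between the neighbours Adh1 and Adh6a r was -0.147.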

How the data were processed

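The authors deposited 1 table of log2 values, genes by cells, for each region, and the tables were made separately. Per the submitters' processing notes the genome was GRCm38/mm10 and the tools were STAR 2.6.1b, UMI-tools 1.0.0, cutadapt 1.18, bcl2fastq and R 3.5.1. Tested on the values, each was log2(UMIs/size factor + 1), corrected linearly for each gene. Undoing it gave whole UMIs for 100.0% of values (tolerance 0.01), 98.0% of them in the 5674 shared genes. All 2043 cells analysed came from wells whose names give 1 sorted cell; wells named for 0 or 10 cells were not used, and no doublet caller was run. Unmapped columns numbered 0.

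Cells were clustered with scanpy 1.11.5 and leidenalg 0.10.2 (Python 3.11.15; 1500 variable genes, 25 principal components, 15 neighbours, Leiden resolution 1). A cluster took the name of the marker list with the highest median log2 ratio to all other cells (pseudocount 0.5 CP10K), if at least 3 markers exceeded log2 0.58 and 1 was among its top 10 genes. This naming rule was chosen after the clusters were seen. log2(mean CP10K per class and sample + 0.2) was tested with limma 3.58.1 (R 4.3.3, eBayes with trend), on genes averaging 0.2 CP10K or more and on at least 3 cells, with Benjamini-Hochberg adjustment and a threshold of 0.05. The steps were tested on simulated data. In the region contrast of enterocyte-like cells, 14.9% of simulated 2-fold and 79.1% of 4-fold changes passed the threshold. In the contrast of enterocyte-like with goblet-like cells these shares were 5.97% and 74.6%, so most 2-fold changes were missed in both. Whether the shares hold at the levels and spread of the 4 genes or of the list genes was not tested. Class contrasts and the villus split had the sample as a term, and region contrasts had no block. Replicate numbers mark the same mouse in both regions, so they pair the samples; same-mouse deviations correlated at -0.0804 to 0.297. Intervals cover counting error only.

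The 4 genes and all lists were chosen with earlier results of these data known. Named genes are the 4, the list genes past the threshold (at most 12, smallest p first), the 6 with the smallest p between regions in enterocyte-like cells, and the 5 most like each of the 4. Promoters are from RefSeq, and 4 of 4 genes matched.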

Additional observations from a re-analysis of the deposited data

How the results depend on the processing

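The fits of the 4 genes, of the list genes called in class contrasts or the villus split, and the counts of both were recomputed with pseudocounts of 0.05 and 1 CP10K, other filters, summed UMIs, at least 10 cells, Leiden resolutions of 0.5 and 2, cells of at least 2000 UMIs, the mouse block changed, the deposited log2 values and each sample left out. Joining or swapping in cluster 4 and leaving out mouse 1 from the class contrasts and the villus split were chosen after seeing the data. Of the summary counts 242 stayed within 1.5 times and 48 moved. Against goblet-like cells 4 of the 4 genes were called. This was 2 with a pseudocount of 0.05 CP10K, with no replicate block or without mouse 1, 1 with the deposited anterior or posterior values, and 2 to 4 when a sample was left out. The retinoid list count of 7 in that contrast was 4 with a pseudocount of 0.05 CP10K or without mouse 1, 11 with at least 10 cells, 16 with summed UMIs, 12 with cells of at least 2000 UMIs, 2 and 3 with the deposited anterior and posterior values, and 4 to 7 when a sample was left out. The list count of 9 against crypt progenitor-like cells was 5 with a filter of 1 CP10K, without mouse 1 or with the deposited anterior values. That of 13 against enteroendocrine-like cells was 8 with that filter or without mouse 1, 6 with at least 10 cells or the deposited posterior values, 3 with the anterior ones, and 8 to 12 when a sample was left out. That of 15 against tuft-like cells was 9, 8 and 6 with that filter, at least 10 cells and the deposited anterior values. In the villus split the list count of 1 was 2 with that filter, summed UMIs or without mouse 1, 3 with at least 10 cells, resolution 0.5 or cluster 4 joined, 0 at resolution 2, without the block or with the deposited values, and 0 to 3 when a sample was left out. Between regions in crypt progenitor-like cells the count of 0 was 1 (Adh1) with the mouse as a replicate block, and 1 with the block and without mouse 1 (log2 3.14, adjusted p = 1.77e-05, on few residual degrees of freedom); the block changed no other region call of the 4 genes. In the villus split the count of the 4 genes was 1 (Adh1) with at least 10 cells and 0 to 1 when a sample was left out. The share of all genes called was not computed for these settings, and the cause of these moves was not tested.

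The direction of 26 values, none of them called, turned. The region difference of Rbp2 in enterocyte-like cells ranged over log2 -0.0754 to 0.542 when a sample was left out, below 0 without anterior mouse 2 or 3. That of Retsat in crypt progenitor-like cells was 0.125 with summed UMIs and ranged over -0.61 to 0.16 when a sample was left out. The interaction of Adh6a was 0.139, 0.157 and 0.388 (pseudocount 1, summed UMIs, cells of at least 2000 UMIs) and -0.836 to 0.284 with a sample left out. That of Retsat was 0.0745, 0.341, 0.374 and 0.842 (pseudocount 1, summed UMIs, resolution 2, cells of at least 2000 UMIs) and -0.512 to 0.0765 with a sample left out. Rbp2 in the villus split was 0.0802 (resolution 0.5), 0.125 (cluster 4 joined) and 0.24 (deposited posterior values). With the deposited anterior values Adh1 and Retsat were -0.408 and -0.017 against crypt progenitor-like cells, and with at least 10 cells Adh1 was 0.0681 against enteroendocrine-like cells. The small numbers of tuft-like cells (38) and of enterocyte-like cells of mouse 1 (26 anterior, 13 posterior) limit the precision.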

Other observations

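Cluster 4, 189 cells led by Ms4a18, Gstm1 and Reg3g and left unnamed, held all 4 genes. Adh1 averaged 21.8 ± 6.23 CP10K in its anterior and 8.12 ± 4.27 CP10K in its posterior samples (SD, n = 3 each), and Rbp2 62.7 ± 7.18 CP10K in the anterior and 33.5 ± 6.37 CP10K in the posterior ones. The regions did not overlap for either gene, and the share of all genes so placed was not computed for this cluster. With this cluster in place of the enterocyte-like cells, the region difference was log2 1.47 for Adh1 (limma adjusted p = 0.209) and 0.91 for Rbp2 (adjusted p = 0.318). Adh6a and Retsat averaged 6.45 ± 3.46 and 4.11 ± 3.14 CP10K over its 6 samples. Its cells were deep, with a median of 11803 UMIs, and after thinning to 1000 UMIs 72.5% of them had an Adh1 UMI.

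The column names mark wells as pos or neg, and the labels used here do not say what this means. In enterocyte-like cells Adh1 averaged 6.90 ± 3.78 CP10K in pos and 5.87 ± 2.56 CP10K in neg wells (SD, n = 6 samples each), a difference within the spread.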
